A study of Mus musculus with 6 samples.

Results

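Integrins are the cell's main receptors for extracellular matrix, and they were followed here in mouse liver sinusoidal endothelial cells together with other matrix receptors and the core of the focal adhesion. The set held 37 named genes of the 48897 in the table: 18 integrin alpha subunits, 8 beta subunits, the integrin-like gene Itgbl1, 4 other receptors (Ddr1, Ddr2, Cd44 and Dag1) and 6 focal adhesion genes (Ilk, Ptk2, Tln1, Vcl, Pxn and Parva). The members were chosen by name, with earlier results of these data known, and all 37 were found. Sinusoidal cells of C57BL/6 mice aged 7 to 8 weeks were collected 14 days after surgery, either partial hepatectomy (PHx, resection of some liver lobes) or a mock operation (Sham), in both cases by magnetic beads against CD146, which Mcam encodes. Each group held 3 libraries, numbered 1, 3 and 4. The labels name no separate animals, so p-values measure the spread between these libraries only, which may be technical.

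An integrin is a pair of an alpha and a beta chain, and the pair decides which ligand is bound: collagens, laminins, proteins with the short RGD sequence such as fibronectin and vitronectin, or surface proteins of other cells. Inside the cell, talin and kindlin bind the beta tail, and vinculin, paxillin, focal adhesion kinase and the complex of integrin-linked kinase with parvin join the receptor to actin and to signalling. In the liver sinusoid, endothelial cells sit on a sparse matrix next to stellate cells, and leukocytes that pass through carry integrins of their own.

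The libraries held between 38765116 and 51888481 counts. Levels are given as CPM (counts scaled to library size) after trimmed-mean-of-M-values (TMM) scaling, and a count of 0 allows up to 3 counts, which is 0.0579 to 0.0795 CPM. The sinusoidal markers Stab1 and Stab2 stood at 3885 ± 1107 and 4058 ± 929 CPM in PHx, against 6673 ± 590 and 6192 ± 493 CPM in Sham (SD, n = 3). The sum of 13 sinusoidal markers was 22520, 29700 and 19170 CPM in PHx 1, 3 and 4, against 36870, 36270 and 34600 CPM in Sham 1, 3 and 4, and none of the 13 genes was called by edgeR (9 had an unadjusted p under 0.05, all lower, and DESeq2 called 4 lower). In 11 of the 13 every PHx library lay below every Sham library, against 9.97% of all genes tested. Of all genes tested by edgeR, 4.73% were lower at an unadjusted p under 0.05. DESeq2 called 0.433% of the genes to which it gave an adjusted p lower. Mcam was at 369 ± 37.2 CPM in PHx and 342 ± 53.3 CPM in Sham. Markers of other cells were present in every library. Stellate and fibroblast markers summed to 4785 to 6040 CPM in PHx and 2382 to 3474 CPM in Sham, and 7 of 14 were called higher. Smooth muscle markers summed to 386 to 490 CPM in PHx and 260 to 308 CPM in Sham, with 4 of 9 called higher, and mesothelial markers to 216 to 315 CPM in PHx and 107 to 170 CPM in Sham, with 2 of 9 called higher. By the same edgeR rule 0.846% of all genes tested were called higher. No marker on these lists was at 0 in all libraries. In RNA of a mixed preparation, fewer cells of a type and less RNA per cell cannot be told apart.

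Of the 37 genes 36 had enough counts to be tested, and Itgad, with 1 to 23 counts per library, had not. Itgav and Itgb5, which encode the 2 chains of the vitronectin receptor integrin αvβ5, were called higher after PHx, and no member was called lower. Genes were called where the quasi-likelihood test of edgeR, adjusted over 19033 genes, gave p under 0.05. That rule was met by 0.862% of these genes, 0.846% in the upward and 0.0158% in the downward direction. Taking the unadjusted p, 7 members were higher and 1 was lower at 0.05, against 7.93% and 4.73% of all genes tested. DESeq2 called 6 members higher and 0 lower, and it called 3.75% and 0.433% of the 19394 genes to which it gave an adjusted p. The median log2 fold change was 0.24 over the 36 tested members and 0.03 over all genes, with 26 members positive and 10 negative. In 8 members every PHx library lay above every Sham library and in 4 every PHx library lay below, arrangements found for 10.5% and 9.97% of all genes tested.

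**Figure D1:**
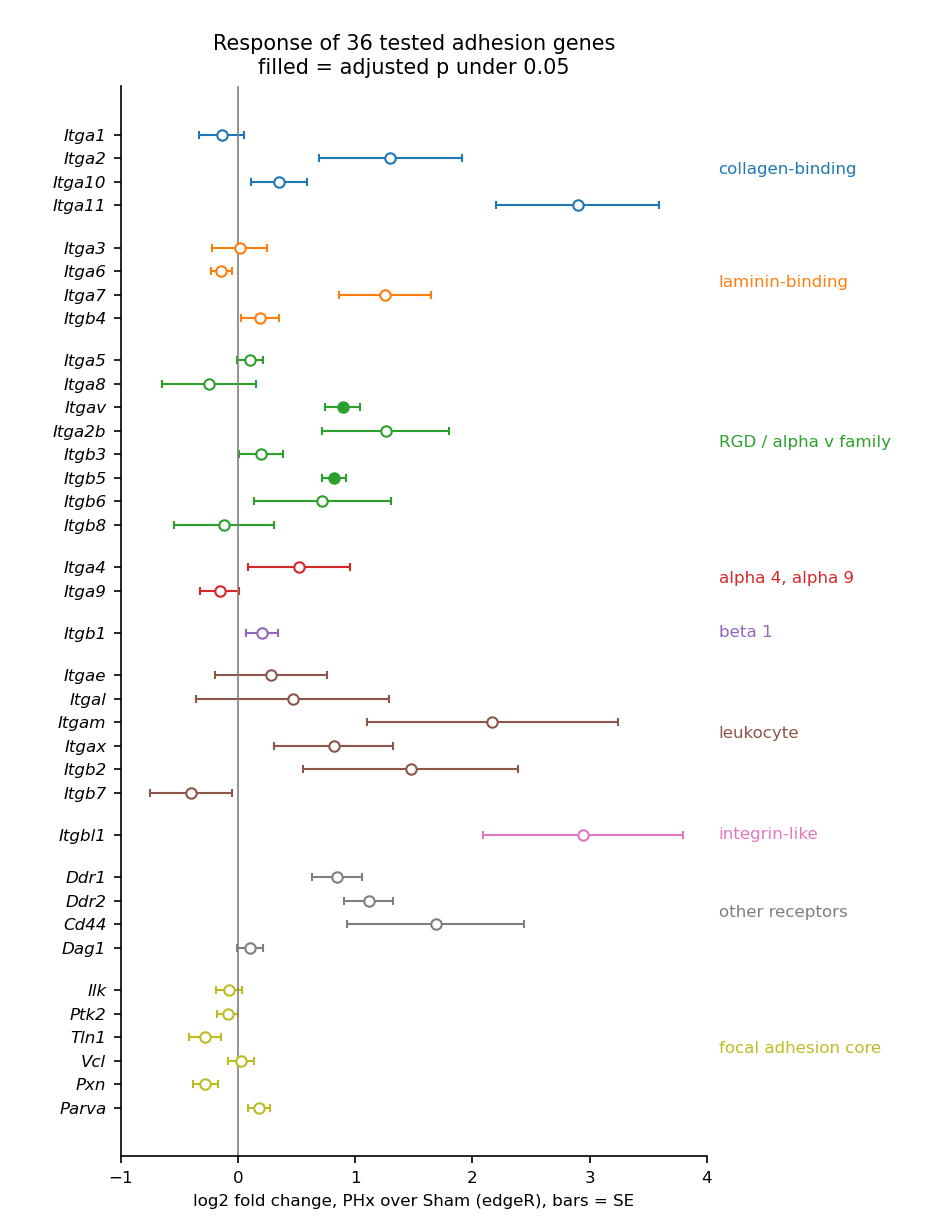
Log2 fold change of PHx over Sham (x axis) for the 36 tested adhesion genes (rows), grouped by role, with the standard error from edgeR as bars. Filled symbols mark Itgav and Itgb5, at 0.89 and 0.82, and all other symbols are open.

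Itgav (chromosome 2, 83724108 to 83806917, mm10) encodes the alpha-v chain, which pairs with the products of Itgb1, Itgb3, Itgb5, Itgb6 and Itgb8 and, in several of these pairs, can release TGF-beta from its latent complex. It stood at 60.1, 55.1 and 79.8 CPM in PHx 1, 3 and 4, against 35.2, 36.5 and 33.3 CPM in Sham 1, 3 and 4. All PHx libraries lay above all Sham libraries, and PHx 4 was the highest. The log2 fold change was 0.89 ± 0.15 (SE), a 1.86-fold higher level, with an adjusted p of 0.0491 in edgeR and 0.000374 in DESeq2. Itgb5 (chromosome 16, 33829665 to 33949338) encodes the beta chain that pairs with alpha-v alone. Its levels were 56.6, 63.0 and 64.5 CPM in PHx 1, 3 and 4 and 36.9, 32.9 and 34.4 CPM in Sham 1, 3 and 4, with no overlap and little spread within either group. The log2 fold change was 0.82 ± 0.10, a 1.76-fold higher level, with an adjusted p of 0.0221 in edgeR and 1.54e-05 in DESeq2.

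Both calls lay close to the threshold. Itgav kept its call without PHx 4 (edgeR adjusted p = 0.0355) and missed it without PHx 1 (0.0962), PHx 3 (0.0539), Sham 1 (0.198), Sham 3 (0.248) or Sham 4 (0.257). Itgb5 kept its call without PHx 1 (edgeR adjusted p = 0.0478) or PHx 4 (0.0333) and missed it without PHx 3 (0.0546), Sham 1 (0.0936), Sham 3 (0.171) or Sham 4 (0.148). Across these 6 fits the log2 fold change stayed between 0.72 and 0.99 for Itgav and between 0.75 and 0.87 for Itgb5. The stellate, smooth muscle and mesothelial marker sums were also higher in every PHx library than in every Sham library, and their part in the rise of Itgav and Itgb5 was not tested.

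Because these genes encode the chains of 1 receptor and were the only members called, their promoter windows from RefSeq (GRCm38.p6, 250 bases before to 50 after the annotated start, plus strand) are shown. Capitals mark GGGCGG, the GC box, on either strand. The Itgav window is chr2:83724147-83724446 and the Itgb5 window chr16:33829415-33829714. The RefSeq start behind the Itgav window lies downstream of the gene start in the deposited table, so that the whole Itgav window falls inside the gene as given above, while for Itgb5 both starts are the same.
Itgav: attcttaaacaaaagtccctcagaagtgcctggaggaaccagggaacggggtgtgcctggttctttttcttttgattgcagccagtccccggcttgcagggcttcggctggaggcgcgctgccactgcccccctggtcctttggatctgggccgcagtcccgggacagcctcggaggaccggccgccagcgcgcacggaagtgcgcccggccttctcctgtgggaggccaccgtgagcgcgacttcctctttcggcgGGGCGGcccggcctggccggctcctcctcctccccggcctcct
Itgb5: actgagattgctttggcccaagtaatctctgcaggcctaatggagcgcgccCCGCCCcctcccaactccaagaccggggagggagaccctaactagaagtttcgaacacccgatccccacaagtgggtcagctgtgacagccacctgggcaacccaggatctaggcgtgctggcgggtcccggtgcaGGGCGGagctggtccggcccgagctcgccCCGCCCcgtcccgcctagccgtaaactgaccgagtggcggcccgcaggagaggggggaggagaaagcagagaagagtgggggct
The GC box occurred 1 time in the Itgav window and 3 times in the Itgb5 window. On either strand it was present in 35.6% of 32817 promoter windows of this length. GC content was 67.3% for Itgav and 65.7% for Itgb5, against a median of 52.7% over all windows. The letters TATAAA (in 13.6% of all windows), TGANTCA (7.8%), GGAATG (14.7%) and the CArG box (1.6%) were searched on both strands, with overlapping matches counted separately, and none was in either window. Of the 37 genes 26 had a window in the RefSeq table.

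No other chain of the RGD-binding group was called. Itgb3, whose chain pairs with alpha-v and, on platelets, with the product of Itga2b, had 136, 143 and 219 CPM in PHx 1, 3 and 4, against 151, 151 and 133 CPM in Sham 1, 3 and 4. PHx 4 stood above the rest, the groups overlapped, and the log2 fold change was 0.20 ± 0.19. Itgb6 and Itgb8, the chains of the αvβ6 and αvβ8 receptors that activate latent TGF-beta, were scarce, at 1.38 ± 0.81 and 4.03 ± 2.31 CPM in PHx and 0.834 ± 0.407 and 4.38 ± 1.11 CPM in Sham. Itga5, the fibronectin receptor chain, was at 242 ± 22.6 CPM in PHx and 225 ± 12.7 CPM in Sham, a log2 fold change of 0.10 ± 0.11. Itga8, whose chain binds nephronectin and fibronectin and which is known from stellate cells, was at 217, 293 and 89.1 CPM in PHx 1, 3 and 4 and 254, 224 and 235 CPM in Sham 1, 3 and 4. The groups overlapped because PHx 4 was the lowest library and PHx 3 the highest, and the log2 fold change was -0.25 ± 0.40 with all libraries and 0.10 without PHx 4.

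**Figure D2:**
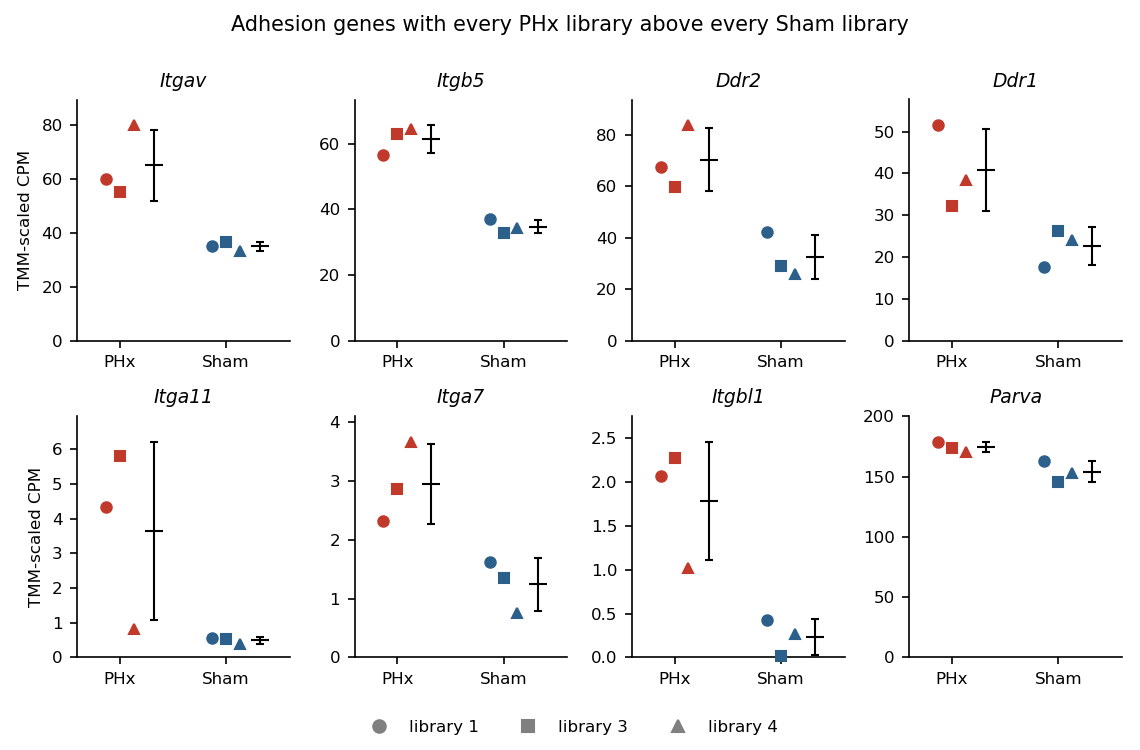
TMM-scaled CPM (y axis, from 0) in each library of PHx and Sham for the 8 adhesion genes whose groups did not overlap with PHx above. Black marks give the mean and SD of 3 libraries, and symbol shapes name libraries without pairing them; Itgav and Itgb5 were called, while the levels of Itga11, Itga7 and Itgbl1 stayed under 6 CPM.

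For 2 receptors of collagen, Ddr1 and Ddr2, all PHx libraries lay above all Sham libraries, without a call by edgeR. Ddr2 (chromosome 1, 169972307 to 170110843), a receptor tyrosine kinase for fibrillar collagens found on fibroblasts and stellate cells, was at 67.5, 59.8 and 83.7 CPM in PHx 1, 3 and 4, against 42.3, 29.2 and 26.1 CPM in Sham 1, 3 and 4. The groups did not overlap, and the log2 fold change was 1.11 ± 0.21, with an adjusted p of 0.0679 in edgeR and 0.000239 in DESeq2. Without the filter on low counts edgeR called it as well (adjusted p = 0.00689). Ddr1, the relative of Ddr2 that is known mainly from epithelial cells, was at 51.5, 32.3 and 38.6 CPM in PHx 1, 3 and 4 and 17.7, 26.3 and 24.0 CPM in Sham 1, 3 and 4. The log2 fold change was 0.85 ± 0.21, with an adjusted p of 0.159 in edgeR and 0.0199 in DESeq2. The sum of 8 markers of cholangiocytes (bile duct epithelium) was 673, 361 and 503 CPM in PHx 1, 3 and 4. In Sham 1, 3 and 4 it was 340.5, 594 and 567 CPM, so the groups overlapped. The part of these cells in the Ddr1 level was not tested.

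Itga11 (chromosome 9, 62677855 to 62783979), the collagen-binding chain of fibroblasts, was scarce in both groups. It had 225, 283 and 39 counts in PHx 1, 3 and 4, which is 4.34, 5.79 and 0.812 CPM, against 21, 27 and 19 counts in Sham 1, 3 and 4, or 0.556, 0.522 and 0.386 CPM. PHx 4 lay much closer to the Sham libraries than PHx 1 and PHx 3 did, although no libraries overlapped. The log2 fold change was 2.90 ± 0.70, with an adjusted p of 0.142 in edgeR and 0.000268 in DESeq2, and edgeR called it without PHx 4 (log2 fold change 3.37, adjusted p = 0.0148). PHx 4 held the highest stellate marker sum of all libraries, 6040 CPM, and the lowest Itga11 level of the PHx libraries. Among PHx libraries the smooth muscle marker sum was also lowest in PHx 4, at 386 CPM. The mesothelial marker sum was lowest in PHx 3, at 216 CPM. The part of these cells in the Itga11 level was not tested.

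None of the other collagen-binding chains was called, and their groups overlapped. Itga1, by far the most abundant of them and known from sinusoidal endothelium, stellate and smooth muscle cells, was at 363, 435 and 261 CPM in PHx 1, 3 and 4, against 421, 388 and 358 CPM in Sham 1, 3 and 4. PHx 3 was the highest and PHx 4 the lowest library, and the log2 fold change was -0.14 ± 0.19 (edgeR adjusted p = 0.779). Pelo overlaps Itga1 on the same strand and held counts equal to 20.7% of those of Itga1, so reads of the pair may have been split. Itga10, a chain best known from cartilage, was at 11.9 ± 2.45 CPM in PHx and 9.39 ± 2.38 CPM in Sham. Itga2, the collagen chain of platelets and epithelia, was at 5.46, 1.45 and 5.56 CPM in PHx 1, 3 and 4 and 2.33, 1.99 and 0.751 CPM in Sham 1, 3 and 4, with PHx 3 inside the Sham range.

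Itgbl1 (chromosome 14, 123659936 to 123974080) encodes a secreted protein with repeats like those of beta integrins and forms no integrin pair. It had 107, 111 and 49 counts in PHx 1, 3 and 4 and 16, 1 and 13 counts in Sham 1, 3 and 4, so that the Sham levels rest on few counts. Fgf14 overlaps it on the opposite strand with counts equal to 13.1% of its own. The corresponding levels were 2.07, 2.27 and 1.02 CPM in PHx and 0.424, 0.0193 and 0.264 CPM in Sham, of which the level in Sham 3 lies under the floor of 3 counts. The log2 fold change was 2.94 ± 0.85, with an adjusted p of 0.223 in edgeR and 0.00504 in DESeq2.

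Among the laminin-binding chains, Itga7, the chain of muscle and pericytes, was at 2.32, 2.87 and 3.66 CPM in PHx 1, 3 and 4, against 1.62, 1.35 and 0.751 CPM in Sham 1, 3 and 4. The groups did not overlap, and the log2 fold change of 1.25 ± 0.39 had an adjusted p of 0.259 in edgeR and 0.0540 in DESeq2. Mettl7b overlaps Itga7 on the opposite strand with more counts than Itga7 itself, and the use of strand in counting is not given in the sources used here. Itga6, the laminin chain of many endothelial and epithelial cells, had 57.3, 55.7 and 55.3 CPM in PHx 1, 3 and 4 and 60.2, 65.9 and 59.8 CPM in Sham 1, 3 and 4. All PHx libraries lay below all Sham libraries by a small margin, with a log2 fold change of -0.14 ± 0.09 and an edgeR adjusted p of 0.542. Itga3 and Itgb4, whose products take part in epithelial laminin receptors, had log2 fold changes of 0.01 ± 0.23 and 0.18 ± 0.16. The sign of Itga3 was negative with upper-quartile factors, without the filter on low counts, with DESeq2 and with limma-voom. Galk1 overlaps Itgb4 on the opposite strand with nearly as many counts.

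Levels of different subunits were compared per length, as deposited RPKM. Among alpha chains Itga9, whose product binds tenascin and osteopontin and is known from lymphatic and sinusoidal endothelium, stood highest with 89.7 ± 15.0 RPKM in PHx and 98.1 ± 4.59 RPKM in Sham. Itga1 (59.8 ± 14.8 RPKM in PHx, 64.2 ± 4.68 in Sham) and Itga5 (54.8 ± 5.57 RPKM in PHx, 49.8 ± 2.57 in Sham) followed, and their levels overlapped in PHx libraries. Itga8 came next with 31.1 ± 15.9 RPKM in PHx and 35.97 ± 1.89 RPKM in Sham. These 4 chains had larger mean levels than any other alpha chain, although Itgam, Itga2b and Itgal passed Itga8 in PHx 4. Itgav was at 8.96 ± 1.70 RPKM in PHx and 4.70 ± 0.23 RPKM in Sham, within the spread of Itga6, Itga3, Itgal and Itga2b in PHx. Of the summed alpha RPKM, Itgav took 2.88% ± 0.51 in PHx and 1.62% ± 0.08 in Sham.

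Itgb1, the beta chain shared by most matrix receptors, was the most abundant beta chain, with 201 ± 21.8 RPKM in PHx and 170 ± 11.6 RPKM in Sham. It took 74.3%, 80.2% and 60.7% of the summed beta RPKM in PHx 1, 3 and 4, against 72.9%, 77.5% and 80.5% in Sham 1, 3 and 4. On the CPM scale Itgb1 was at 826, 927 and 747 CPM in PHx 1, 3 and 4 and 687, 712 and 773 CPM in Sham 1, 3 and 4, with a log2 fold change of 0.20 ± 0.13 (edgeR adjusted p = 0.552). Itgb5 was at 18.9 ± 0.56 RPKM in PHx and 10.5 ± 0.49 RPKM in Sham, and its share of the beta sum was 6.72% ± 0.24 in PHx and 4.72% ± 0.25 in Sham. Itgb3, at 28.1 ± 7.14 RPKM in PHx and 24.0 ± 1.69 RPKM in Sham, exceeded Itgb5 in each library. The 8 beta chains summed to 282, 271 and 291 RPKM in PHx 1, 3 and 4, against 219, 218 and 227 RPKM in Sham 1, 3 and 4, and the 18 alpha chains to 306, 309 and 316 RPKM in PHx and 305, 292 and 277 RPKM in Sham. Itgb2 held 52.2 RPKM of the beta sum in PHx 4 and 5.05 RPKM in PHx 3. These RPKM sums carry no TMM scaling. On TMM-scaled CPM, which is not per length, the alpha sums overlapped, at 1711, 1957 and 1834 CPM in PHx and 1910, 1812 and 1742 CPM in Sham. The beta sums on that scale, with Itgbl1 included, were 1123, 1185 and 1225 CPM in PHx and 969, 953 and 994 CPM in Sham.

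**Figure D3:**
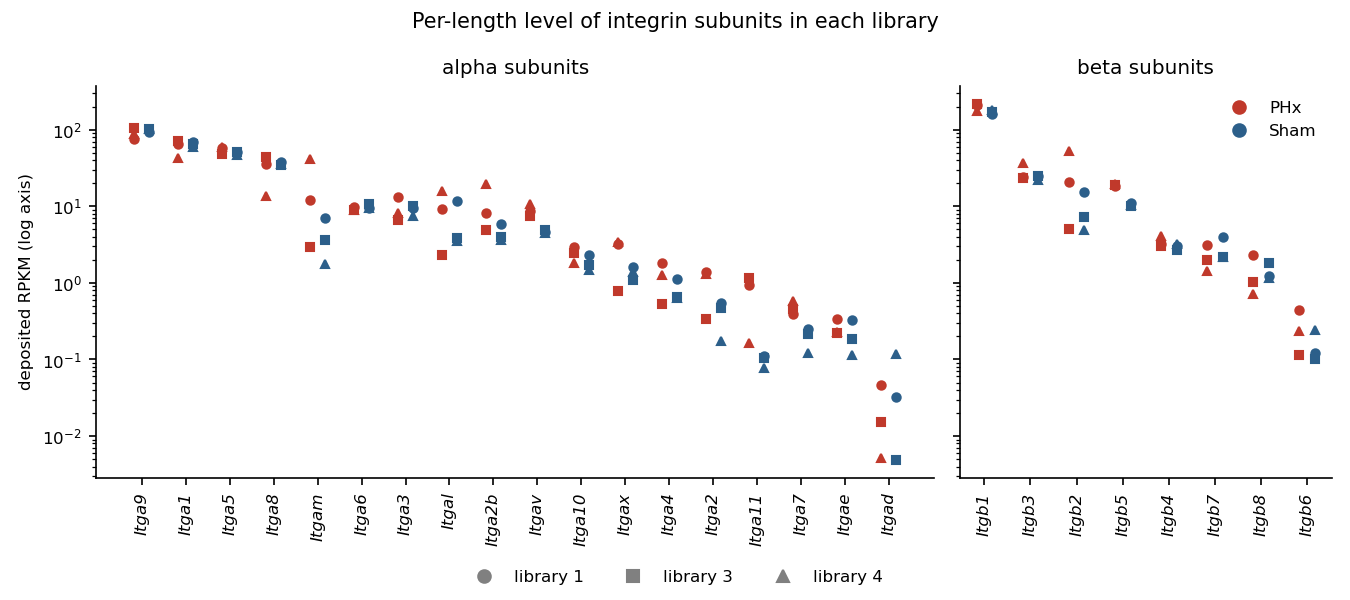
Deposited RPKM (y axis, log scale) of the 18 alpha and 8 beta integrin subunits in each PHx and Sham library, ordered by mean. Itgb1, Itga9, Itga1, Itga5 and Itga8 lead their families, and the libraries spread widely for Itgam, Itgb2 and the scarce Itga11 and Itgad.

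No integrin of leukocytes was called, and most of them varied widely among libraries of the same group. Itgal, Itgam, Itgax and Itgad lie near each other on chromosome 7, from 127296230 to 128205504, and their products pair with that of Itgb2. Itgam, the chain of the complement receptor on neutrophils and macrophages, was at 52.7, 13.8 and 197 CPM in PHx 1, 3 and 4 and 33.5, 16.97 and 8.37 CPM in Sham 1, 3 and 4. Itgb2 was at 57.8, 15.1 and 155 CPM in PHx 1, 3 and 4 and 46.4, 21.1 and 14.8 CPM in Sham 1, 3 and 4. In both genes PHx 4 was the highest library and PHx 3 fell within the Sham range. The log2 fold changes were 2.17 ± 1.07 and 1.47 ± 0.92 with all libraries (edgeR adjusted p = 0.475 and 0.548), and 0.77 and 0.41 without PHx 4.

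Itgal, the chain by which lymphocytes and neutrophils bind ICAM proteins, was at 47.2, 12.8 and 86.0 CPM in PHx 1, 3 and 4 and 65.0, 21.2 and 19.6 CPM in Sham 1, 3 and 4. PHx 3 was the lowest of all libraries, and the log2 fold change of 0.47 ± 0.82 became -0.23 without PHx 4. Itgax, a chain of dendritic cells and other myeloid cells, was at 12.8, 3.36 and 14.2 CPM in PHx 1, 3 and 4 and 6.91, 4.50 and 5.85 CPM in Sham 1, 3 and 4. Itgb7, the gut-homing chain of lymphocytes, was at 16.9, 11.5 and 8.22 CPM in PHx 1, 3 and 4 and 23.6, 12.4 and 12.5 CPM in Sham 1, 3 and 4, so that it was lowest in the library where Itgam was highest. Itgae, its partner in lymphocytes of epithelia, stayed under 2 CPM in every library, and Gsg2 overlaps it on the opposite strand with more counts. Itga4, a chain of lymphocytes and monocytes that binds VCAM1 and fibronectin, was at 11.5 ± 5.73 CPM in PHx and 8.03 ± 2.82 CPM in Sham. Its levels were 16.7, 5.34 and 12.4 CPM in PHx 1, 3 and 4 and 11.3, 6.53 and 6.27 CPM in Sham 1, 3 and 4.

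Neutrophil markers followed Itgam and Itgb2, but not Itgb7 or Itgae. The 14 markers summed to 930, 42.2 and 5371 CPM in PHx 1, 3 and 4 and 520, 279 and 55.9 CPM in Sham 1, 3 and 4. All 14 had a positive log2 fold change, none was called by edgeR (1 had an unadjusted p under 0.05) or by DESeq2, and none was at 0 in all libraries. The leukocyte gene Ptprc was at 80.5, 17.5 and 179 CPM in PHx 1, 3 and 4 and 71.0, 34.0 and 24.3 CPM in Sham 1, 3 and 4. From the top, the first 4 libraries were PHx 4, PHx 1, Sham 1 and Sham 3 for Itgam, for Itgb2, for Ptprc and for the neutrophil sum. For Itga4 the same 4 libraries led, with PHx 1 above PHx 4. Monocyte and macrophage markers summed to 476, 327 and 838 CPM in PHx 1, 3 and 4 and 689, 228 and 375 CPM in Sham 1, 3 and 4, and lymphocyte markers to 36.2, 12.3 and 23.3 CPM in PHx and 35.0, 20.0 and 23.0 CPM in Sham. The part of these cells in the integrin levels was not tested.

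Cd44, a hyaluronan receptor of leukocytes and many other cells, was at 58.0, 31.8 and 163 CPM in PHx 1, 3 and 4 and 44.2, 19.4 and 14.9 CPM in Sham 1, 3 and 4. PHx 4 again stood highest, and the log2 fold change was 1.69 ± 0.75 with all libraries (edgeR adjusted p = 0.438) and 0.78 without PHx 4. Itga2b, the fibrinogen receptor chain of platelets and megakaryocytes, was at 26.7, 17.3 and 68.4 CPM in PHx 1, 3 and 4 and 20.9, 13.6 and 12.6 CPM in Sham 1, 3 and 4. Its log2 fold change was 1.26 ± 0.54 with all libraries (edgeR adjusted p = 0.414) and 0.49 without PHx 4. The sum of 8 platelet markers was 11.3, 11.6 and 13.3 CPM in PHx 1, 3 and 4 and 10.1, 8.02 and 11.3 CPM in Sham 1, 3 and 4, which is less than Itga2b alone in each library. Dag1, which encodes dystroglycan, the laminin receptor of basement membranes, was even across libraries, at 294 ± 17.9 CPM in PHx and 274 ± 18.9 CPM in Sham.

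**Figure D4:**
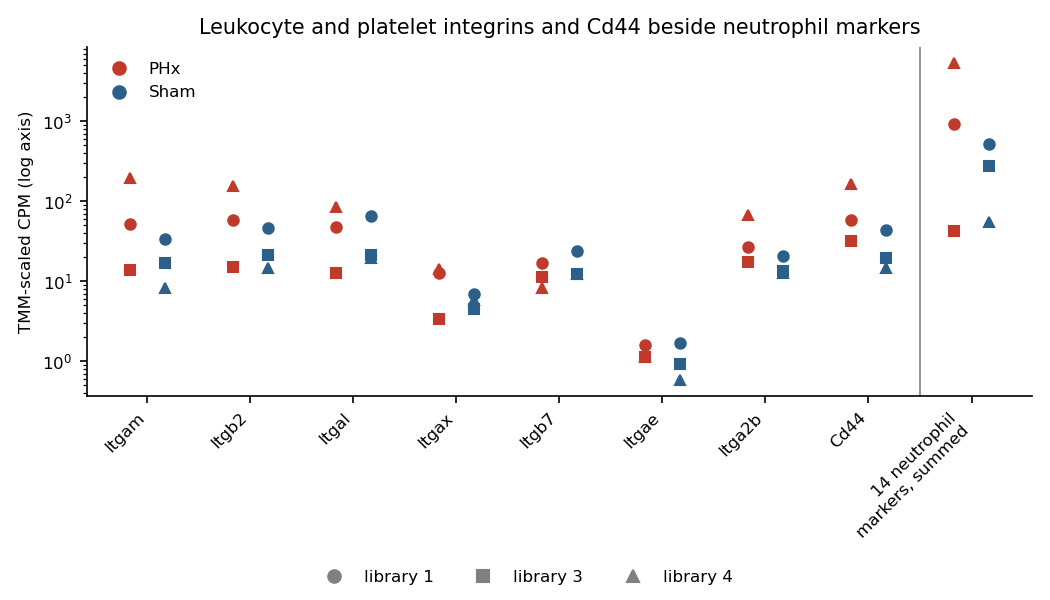
TMM-scaled CPM (y axis, log scale) of leukocyte and platelet integrins and Cd44 in each PHx and Sham library, with the summed level of 14 neutrophil markers at the right. PHx 4, at 5371 CPM of neutrophil markers, is also the highest library for Itgam, Itgb2, Itgal, Itgax, Itga2b and Cd44, but the lowest for Itgb7, and Sham 1 is the highest for Itgae.

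Of the 6 focal adhesion genes none was called by edgeR or DESeq2, and Pxn was the single one with an unadjusted p under 0.05 in edgeR. Pxn, which encodes the scaffold paxillin, was at 342, 387 and 367 CPM in PHx 1, 3 and 4, against 438, 447 and 446 CPM in Sham 1, 3 and 4. The Sham libraries were nearly equal and all lay above the PHx libraries, and the log2 fold change was -0.28 ± 0.11, with an edgeR adjusted p of 0.348. Tln1, which encodes talin, the activator that binds beta tails, had 1061, 1081 and 954 CPM in PHx 1, 3 and 4 and 1343, 1290 and 1134 CPM in Sham 1, 3 and 4. It was the most abundant member on the CPM scale and lay below Sham in every PHx library, with a log2 fold change of -0.28 ± 0.14 (edgeR adjusted p = 0.437).

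Ptk2, focal adhesion kinase, was at 160, 172.1 and 165 CPM in PHx 1, 3 and 4 and 175, 172.1 and 181 CPM in Sham 1, 3 and 4, so that PHx 3 and Sham 3 were equal to the precision given. Parva, the parvin that joins integrin-linked kinase to actin, had 179, 174 and 171 CPM in PHx 1, 3 and 4 and 163, 146 and 153 CPM in Sham 1, 3 and 4. Every PHx library lay above every Sham library, with a log2 fold change of 0.18 ± 0.09 (edgeR adjusted p = 0.470). Ilk, integrin-linked kinase, and Vcl, vinculin, had log2 fold changes of -0.08 ± 0.11 and 0.03 ± 0.11, and the sign of Vcl was negative with upper-quartile factors and without the filter on low counts. Taf10 and Rrp8 overlap Ilk on the opposite strand, with counts equal to 12.0% and 7.48% of those of Ilk.

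**Figure D5:**
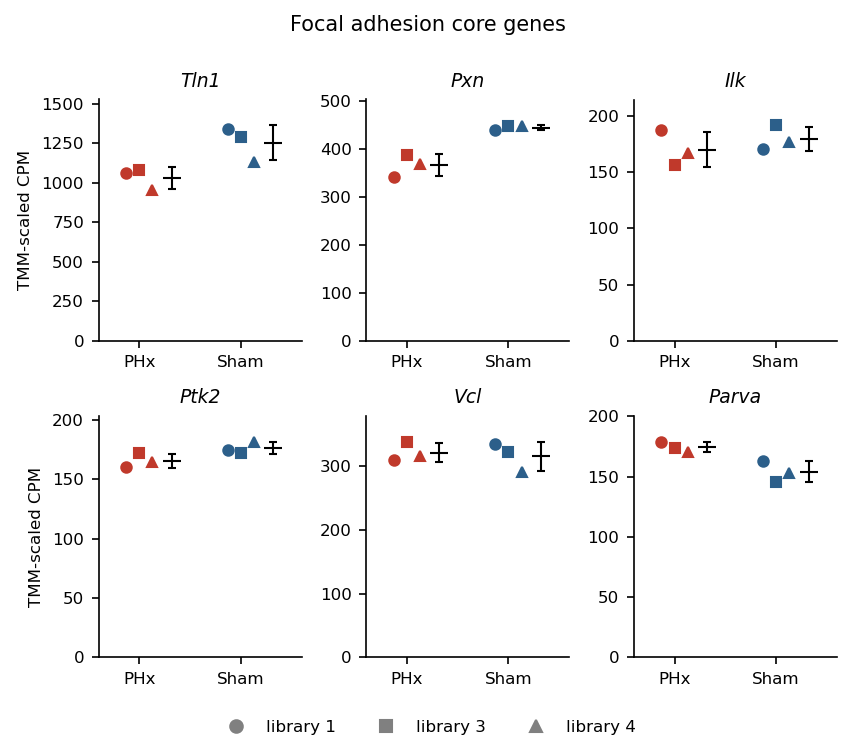
TMM-scaled CPM (y axis, from 0) of the 6 focal adhesion genes in each PHx and Sham library, with black marks for the mean and SD of 3 libraries. Tln1 and Pxn are lower and Parva is higher in each PHx library than in each Sham library, and the differences are small beside the level of each gene.

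A wider list of 50 adhesion adaptors, kinases and actin linkers was read from the same fit. None of the 50 was called by edgeR, which called 0.862% of all genes tested. Without adjustment 12 were higher and 1 was lower at p under 0.05, against 7.93% and 4.73% of all genes tested. In DESeq2 6 were higher and 0 lower, against 3.75% and 0.433% of the genes to which it gave an adjusted p. Their median log2 fold change was 0.14. The smallest edgeR adjusted p-values belonged to Src, a kinase that acts with focal adhesion kinase, and to Arhgap24, a Rac inhibitor bound to filamin. Src was at 30.3, 21.4 and 30.3 CPM in PHx 1, 3 and 4 and 13.6, 16.5 and 12.3 CPM in Sham 1, 3 and 4, a log2 fold change of 0.95 (adjusted p = 0.0730). Arhgap24 was at 36.1 ± 2.02 CPM in PHx and 20.9 ± 3.97 CPM in Sham, a log2 fold change of 0.79 (adjusted p = 0.0749). Enah, an actin regulator of adhesion sites, had a log2 fold change of 0.97 (edgeR adjusted p = 0.160). Fermt2, the kindlin of most tissues, was at 378 ± 26.1 CPM in PHx and 340 ± 9.92 CPM in Sham.

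Ligands of these receptors were measured in the same libraries. Of 32 listed ligand genes 30 were tested, and 7 were called higher, none lower, with a median log2 fold change of 0.82. Over all genes tested, edgeR called 0.846% higher and 0.0158% lower. The called genes were Fn1, which encodes fibronectin, Postn, for periostin, a ligand of alpha-v integrins, Fbn1, for fibrillin, the laminin chains Lama2 and Lamc1, and the collagen chains Col1a2 and Col3a1. No ligand gene was lower even before adjustment, at p under 0.05, against 4.73% of all genes tested. In DESeq2 15 were higher and 0 lower, against 3.75% and 0.433% of the genes to which it gave an adjusted p. Fn1 averaged 882 ± 70.4 CPM in PHx and 273 ± 34.6 CPM in Sham, Col3a1 1305 ± 239 CPM in PHx and 229 ± 19.9 CPM in Sham, and Col1a2 874 ± 350.4 CPM in PHx and 128 ± 13.1 CPM in Sham. The log2 fold changes of Lama2, Fbn1 and Lamc1 were 1.52, 1.23 and 0.82 (edgeR adjusted p = 0.0300, 0.0292 and 0.0363). Stellate cells are known to make several of these proteins, and the part of the higher stellate marker sum in the ligand levels was not tested. Postn was at 196, 199 and 208 CPM in PHx 1, 3 and 4, against 65.9, 58.1 and 53.6 CPM in Sham 1, 3 and 4, a log2 fold change of 1.76 (edgeR adjusted p = 0.00558). Vtn, which encodes vitronectin, the plasma ligand of αvβ5, was at 46.8, 16.9 and 40.2 CPM in PHx 1, 3 and 4 and 50.7, 55.5 and 43.4 CPM in Sham 1, 3 and 4, with overlapping groups. The sum of 10 hepatocyte markers was 1753, 789 and 1793 CPM in PHx 1, 3 and 4. In Sham 1, 3 and 4 this sum was 1479, 2046 and 1811 CPM, so PHx 3 was lowest for it and for Vtn. The part of hepatocytes in the Vtn level was not tested. Tnc, which encodes tenascin, a ligand of the product of Itga9, was at 101, 199 and 33.2 CPM in PHx 1, 3 and 4 and 7.39, 14.0 and 12.4 CPM in Sham 1, 3 and 4. Its groups did not overlap, and the log2 fold change of 3.30 had an adjusted p of 0.164 in edgeR and 0.000387 in DESeq2.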

How the data were processed

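The authors deposited 1 table holding, for each gene in each library, a read count and an RPKM. Per the submitters' processing notes, TopHat2 2.0.13 and bcl2fastq were among the tools and mm10 (GRCm38) was the build. The counter, annotation release and use of strand are not given in the sources used here. The deposited RPKM equalled the count divided by gene length and summed counts (100% of values within a relative 1e-06) and served to compare levels between genes and for the sums and shares of the alpha and beta chains, which were not tested between groups. 27 gene names turned into dates were restored through their Entrez numbers. The smallest chi-square per degree of freedom between libraries was 49.9, so none was a copy of another.

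The test was that of edgeR 4.0.16 under R 4.3.3 (TMM scaling, filterByExpr, robust quasi-likelihood, group as the only term), with Benjamini-Hochberg adjustment over 19033 genes and calls at an adjusted p under 0.05. A standard error (SE) is the size of the log2 fold change over the root of its F statistic. CPM values use TMM factors on the summed counts. DESeq2 1.42.0, limma-voom (limma 3.58.1), other scaling, no filter (any count above 0), an adjusted p under 0.01, the replicate number as a block and leaving out each library were alternatives. The model was tested on simulated counts, where it missed many changed genes, most of all at the smaller fold, and made false calls above the nominal rate, so a gene that was not called may still differ and a call near the threshold is uncertain. Promoters came from RefSeq, and matches to a motif are descriptions.

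The members and lists were chosen with earlier results of these data known. By the naming rule all members are named, with values per library for those called and those above 1 CPM whose groups did not overlap. A further class, picked by values, was members that move with a marker list of another cell type (leukocyte and platelet integrins). Of the other adhesion and ligand lists, the rule names the called genes or the 4 with the smallest adjusted p. Of marker lists it names up to 4 of the most abundant genes. Itga1, Itga2, Itga4, Itga8, Itgb1, Itgb3 and Cd44 (values per library), Vtn, Tnc and Fermt2 were added after their values were seen. A gene that the rule would name is not reported here. Roles were grouped from textbook knowledge.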

Additional observations from a re-analysis of the deposited data

How the results depend on the processing

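With 3 libraries a group, the number of calls moved with the setting. Itgav and Itgb5 stayed higher in PHx under each alternative run. Their direction could hardly change, because every PHx library lay above every Sham library for both genes. The 2 higher members, Itgav and Itgb5, were both called with median-of-ratios and upper-quartile factors, without the filter on low counts and by DESeq2. The number of higher members was 0 at an adjusted p under 0.01, 6 with DESeq2, 3 with no filter (Ddr2 was added), 1 with limma-voom, where Itgav had an adjusted p of 0.0648, and 0 to 3 when each library was left out (1 without PHx 1, 3 without PHx 4, where Itga11 was added, and 0 without any other). With the replicate number as a block it was 0, with an adjusted p of 0.169 for Itgav and 0.123 for Itgb5. Deviations from the group means correlated at -0.09, -0.23 and 0.03 between libraries of the same number. From 3 libraries a group these values cannot show whether the numbers pair PHx and Sham, which the labels do not say. No alternative called a lower member. Of the 50 other adhesion genes DESeq2 called 6 higher, edgeR with no filter 2, and the fits that left out a library 0. Over all genes the higher and lower counts were 161 and 3 as reported. They became 16 and 1 at the stricter threshold of 0.01, 727 and 84 in DESeq2, 359 and 30 with no filter, 14 and 1 with the replicate block, and 0 to 160 and 0 to 9 when each library was left out. The cause was not tested, except that the stricter threshold shows its own.

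Of the 36 members 8 changed sign of the log2 fold change under some alternative, and none of them was called. Itga3 was at -0.020 with upper-quartile factors, -0.017 with no filter, -7.17e-05 with DESeq2, -0.019 with limma-voom and -0.022 with the replicate block. Vcl was at -0.0067 with upper-quartile factors and -0.0022 with no filter. Leaving out each library gave -0.33 to 0.037 for Itga1, -0.28 to 0.19 for Itga3, -0.64 to 0.10 for Itga8, -0.049 to 0.75 for Itgae, -0.23 to 1.23 for Itgal, -0.052 to 0.31 for Itgb3, -0.69 to 0.17 for Itgb8 and -0.067 to 0.044 for Vcl. Under 10 CPM, as for Itga2, Itga7, Itga11, Itgb6, Itgb8, Itgae and Itgbl1, few counts limit the precision, and Itgad could not be tested.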
